A study of Mus musculus with 12 samples.

Results

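The Armcx and Gprasp genes are a family of armadillo-repeat genes that lie close together on the X chromosome. The 8 members *Armcx1* to *Armcx6*, *Gprasp1* and *Gprasp2* were taken by gene name from the count files, where they are 8 of 24627 genes. They were chosen by name with their DOX and noDOX values of all 3 lines in view, so every comparison of DOX with noDOX is a description of the members and carries no weight as a test. The noDOX values compared between lines below are among those, although no difference between lines without DOX and none between replicates is part of the rule. Gene expression was measured by RNA-seq in J1 mouse ES cells, which have a single X chromosome and carry a TetO promoter at the *Xist* locus, so that doxycycline (DOX) switches on *Xist* from that X. All 12 libraries came from cells at day 2 of differentiation in medium without LIF, grown in DOX at 1.5 μg/ml or left uninduced (noDOX). The lines were *Xist* FL (full-length transcript), *Xist* ΔA (A repeat deleted, named del A in the labels) and *Xist* ΔB+C (B and C repeats deleted by CRISPR/Cas9 in the *Xist* FL line, from a picked single-cell clone), with 2 replicates in each of 6 groups. The *Xist* FL and *Xist* ΔA lines were made earlier. The replicates are biological duplicates according to the study's text, while the labels give only their number.

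ARMCX proteins carry armadillo repeats, and several of them sit on the outer membrane of mitochondria. *Armcx3*, the best studied, binds the Miro and TRAK adaptors that link mitochondria to kinesin motors, and *Armcx1* is likewise known for mitochondrial transport in neurons. GPRASP proteins bind the cytoplasmic tails of G protein-coupled receptors, and *Gprasp1* directs internalised receptors to lysosomes. The family is found in placental mammals and is thought to descend from the autosomal gene *Armc10*. *Xist* RNA coats the chromosome it is made from. Its A repeat is needed for gene silencing, and its B and C repeats for recruitment of Polycomb complexes.

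On mm10 (GRCm38, GENCODE vM21 annotation) the members form 2 groups on the X. The proximal group runs over 122.7 kb from 134686519 to 134809221 and holds *Armcx4*, *Armcx1*, *Armcx6*, *Armcx3* and *Armcx2* in that order. The distal group runs over 102.0 kb from 135742733 to 135844730 and holds *Armcx5*, *Gprasp1* and *Gprasp2*. A stretch of 933.5 kb separates them. *Armcx6* and *Armcx2* are on the minus strand and the other 6 members on the plus strand. The coding sequence of every member lies in 1 exon, between 903 bp in *Armcx6* and 7068 bp in *Armcx4*. *Armcx5* and *Gprasp1* are annotated from the same start at 135742733, and 456 bp of their exons are the same, which is 10.7% of the exon length of *Armcx5* and 5.6% of that of *Gprasp1*. *Gprasp2* shares 376 bp of exon with *Bhlhb9*, the gene of another GPRASP relative, which starts inside the annotated span of *Gprasp1*.

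Promoter windows were available for 7 members, and *Armcx3* was not among them. The windows below are the 250 bases upstream of the RefSeq start on GRCm38.p6, written 5′ to 3′ on the strand of the gene, with each CpG in capitals. The windows of *Armcx1* (chrX:134717688-134717937, plus strand), *Armcx6* (chrX:134751420-134751669, minus strand) and *Armcx2* (chrX:134809222-134809471, minus strand) are shown for the proximal group. The window that *Armcx5* and *Gprasp1* share (chrX:135742442-135742691, plus strand) is shown for the distal group. Both groups are shown because their members differed in the size of their DOX response. The windows of *Armcx4* and *Gprasp2* are not shown, and their CpG counts are given below.
Armcx1: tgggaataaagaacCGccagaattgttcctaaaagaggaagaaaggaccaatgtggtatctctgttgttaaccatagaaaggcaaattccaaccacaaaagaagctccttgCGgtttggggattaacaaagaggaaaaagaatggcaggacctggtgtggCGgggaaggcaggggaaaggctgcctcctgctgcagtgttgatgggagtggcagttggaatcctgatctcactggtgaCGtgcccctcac
Armcx6: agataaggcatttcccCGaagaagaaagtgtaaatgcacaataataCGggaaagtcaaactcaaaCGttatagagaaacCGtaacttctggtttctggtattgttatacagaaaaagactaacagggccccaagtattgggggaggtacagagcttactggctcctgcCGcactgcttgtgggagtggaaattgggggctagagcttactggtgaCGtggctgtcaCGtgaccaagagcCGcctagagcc
Armcx2: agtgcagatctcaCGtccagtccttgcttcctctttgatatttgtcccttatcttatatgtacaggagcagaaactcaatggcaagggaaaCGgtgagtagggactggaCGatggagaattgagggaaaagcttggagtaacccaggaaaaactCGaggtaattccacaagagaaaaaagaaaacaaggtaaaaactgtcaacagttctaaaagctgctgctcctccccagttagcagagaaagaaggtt
Armcx5 and Gprasp1: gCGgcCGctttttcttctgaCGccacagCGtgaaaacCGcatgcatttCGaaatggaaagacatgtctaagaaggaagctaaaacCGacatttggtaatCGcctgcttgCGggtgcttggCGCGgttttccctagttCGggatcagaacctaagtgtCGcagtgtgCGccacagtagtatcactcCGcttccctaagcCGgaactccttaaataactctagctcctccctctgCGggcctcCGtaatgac

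The windows differed in their CpG content. *Armcx1* and *Armcx2* held 4 CpG each, *Armcx6* held 8, *Gprasp2* held 10, *Armcx4* held 14, and the shared window of *Armcx5* and *Gprasp1* held 18. The median over 32851 RefSeq promoter windows was 6. In the proximal group, windows below and above that median thus stood side by side. *Armcx1* and *Armcx6* shared the 12 bases ACTGGTGACGTG, which end 8 bases before the start of *Armcx1* and 31 bases before that of *Armcx6* as the windows are counted. Among all 32851 windows, searched on both strands, 2 held these 12 bases, those of *Armcx1* and *Armcx6*. The TATA box letters TATAAA were in none of the 7 windows, against 12.4% of all windows. The letters TGACG, which lie inside the 12 shared bases and inside the longer cAMP-response element TGACGTCA, were in the windows of *Armcx4*, *Armcx1*, *Armcx6* and of *Armcx5* with *Gprasp1*, against 17.8% of all windows, and TGACGTCA was in none of them (1.5% of all windows). The GC box letters GGGCGG were in the windows of *Armcx4* and *Gprasp2* (32.7% of all windows) and CCAAT in those of *Armcx4*, *Armcx1* and *Armcx6* (33.8%). These matches describe the letters of the windows and were not tested against the expression values.

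All 12 libraries held between 31337490 and 41240470 counts, and 13191 genes passed the filter of 1 CPM (counts scaled to the library total) in at least 6 of them, all 8 members included. *Xist* was at 2.48 to 8.27 CPM in the noDOX libraries. With DOX it was at 868.7 and 907.7 CPM in *Xist* FL and at 722.0 and 570.1 CPM in *Xist* ΔA. In *Xist* ΔB+C it was at 1791 and 1159 CPM with DOX. The descriptions of all 3 noDOX replicate 1 libraries also hold the word DOX, but their *Xist* levels lay in the noDOX range. The 10 pluripotency and epiblast markers were all tested and summed to between 3429 CPM and 5304 CPM, with *Pou5f1* at 1149 CPM or more in every library. The 5 mesoderm markers, 3 of them tested, summed to 242.4 and 176.1 CPM in *Xist* FL noDOX and to 133.0 and 36.8 CPM in *Xist* FL DOX, to 202.3 and 108.7 CPM in *Xist* ΔB+C noDOX and to 133.1 and 39.3 CPM in *Xist* ΔB+C DOX, and to 38.7 to 62.5 CPM in the 4 *Xist* ΔA libraries. The 9 neural markers, 8 of them tested, summed to between 182.1 and 287.7 CPM over all libraries. The sums were 23.1 to 56.9 CPM for primitive endoderm, 10.85 to 39.0 CPM for trophectoderm and 10.4 to 54.2 CPM for fibroblast markers. The fibroblast sum was 54.2 and 20.2 CPM in replicates 1 and 2 of *Xist* FL noDOX. The part of any of these markers in the values of the members was not tested. For replicate 2 of *Xist* ΔB+C DOX only 100 ng of RNA entered a low-input protocol, against 1000 ng elsewhere, so values are also given without it.

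Sequence shared between the paralogs, with pseudogenes and with overlapping genes was counted. The library fragments were read from both ends with 150 bases, 1 placement was kept per read, and pairs that overlapped exons of more than 1 gene were not assigned to any under the stated counting options, which give no strand setting. Within coding sequence, the longest stretch without a mismatch between any members was 58 bp, between *Gprasp1* and *Gprasp2*, and in every other pair it was at most 17 bp. Over whole exons and transcripts, however, *Gprasp1* and *Gprasp2* had 405 stretches of 50 bases and 168 of 150 bases in common, which reach beyond the coding part. No 50-base stretch of the exons or transcripts of *Armcx4*, *Armcx1* or *Armcx2* occurred in any other annotated gene. Of the 50-base stretches of *Armcx3*, 29.0% also occurred in the processed pseudogenes *Gm9299* on chromosome 7 or *CT571242.1* on chromosome 17, and 21.2% of its 150-base stretches did. For *Armcx6* the shares were 14.8% and 10.8%, all with the processed pseudogene *Gm16397* on the X. For *Armcx5* they were 12.6% and 5.31%, mostly with *Gprasp1*, and for *Gprasp1* and *Gprasp2* 9.42% and 9.92% of the 50-base stretches and 4.71% and 5.37% of the 150-base stretches. The values of *Armcx3*, *Armcx6*, *Armcx5*, *Gprasp1* and *Gprasp2* are uncertain for this reason. Those of *Armcx6* and *Armcx3* are uncertain also because their RefSeq gene spans overlap by 115 bp on opposite strands. Whether exons overlap there was not counted. In GENCODE vM21 these 2 genes do not overlap, as *Armcx6* ends at 134751417 and *Armcx3* starts at 134756595. The shares are of annotated sequence and not of reads, so how far the counts were affected was not measured.

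Without DOX, the members spanned a range of levels in *Xist* FL. Per kb of exon, *Armcx2* was the highest member at 14.6 and 15.1 CPM per kb in replicates 1 and 2. *Armcx4* followed at 11.4 CPM per kb in both, then *Armcx1* at 7.03 and 7.66, and *Gprasp1* at 6.62 and 6.74. *Armcx3*, at 4.37 and 4.46 CPM per kb, overlapped *Armcx6*, at 4.20 and 4.44. *Gprasp2*, at 2.57 and 2.95 CPM per kb, overlapped *Armcx5*, at 2.70 and 2.07. By this length, neighbours in this order other than these 2 pairs did not overlap between replicates. With DOX in *Xist* FL the order was different, with *Armcx2*, *Armcx4* and *Gprasp1* overlapping at the top between 3.32 and 4.47 CPM per kb. *Gprasp2* (1.456 and 1.455), *Armcx5* (1.54 and 1.28), *Armcx3* (1.47 and 1.03) and *Armcx6* (1.08 and 1.15) were lowest, each overlapping the next. Gene length enters these levels. The exon length is that of all GENCODE exons, while the counting used refFlat, and it includes bases shared with other genes. Not shared were 7627 of 8119 bp in *Gprasp1*, 3737 of 4247 bp in *Armcx5* and 4164 of 4540 bp in *Gprasp2*. Levels per kb of unshared exon were not computed, and the small gap between *Armcx1* and *Gprasp1* may not hold by that length. In *Xist* FL noDOX, with the longest transcript in place of all exons, *Armcx6* stood above *Armcx3* without overlap, and *Armcx5* above *Gprasp2* with overlap. In *Xist* FL DOX by that length, *Gprasp1* was highest, at 5.12 and 5.27 CPM per kb, overlapping *Armcx2*, at 5.36 and 3.99. There *Armcx6* overlapped *Armcx3*, and *Armcx5* stood above *Gprasp2* without overlap.

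**Figure D1:**
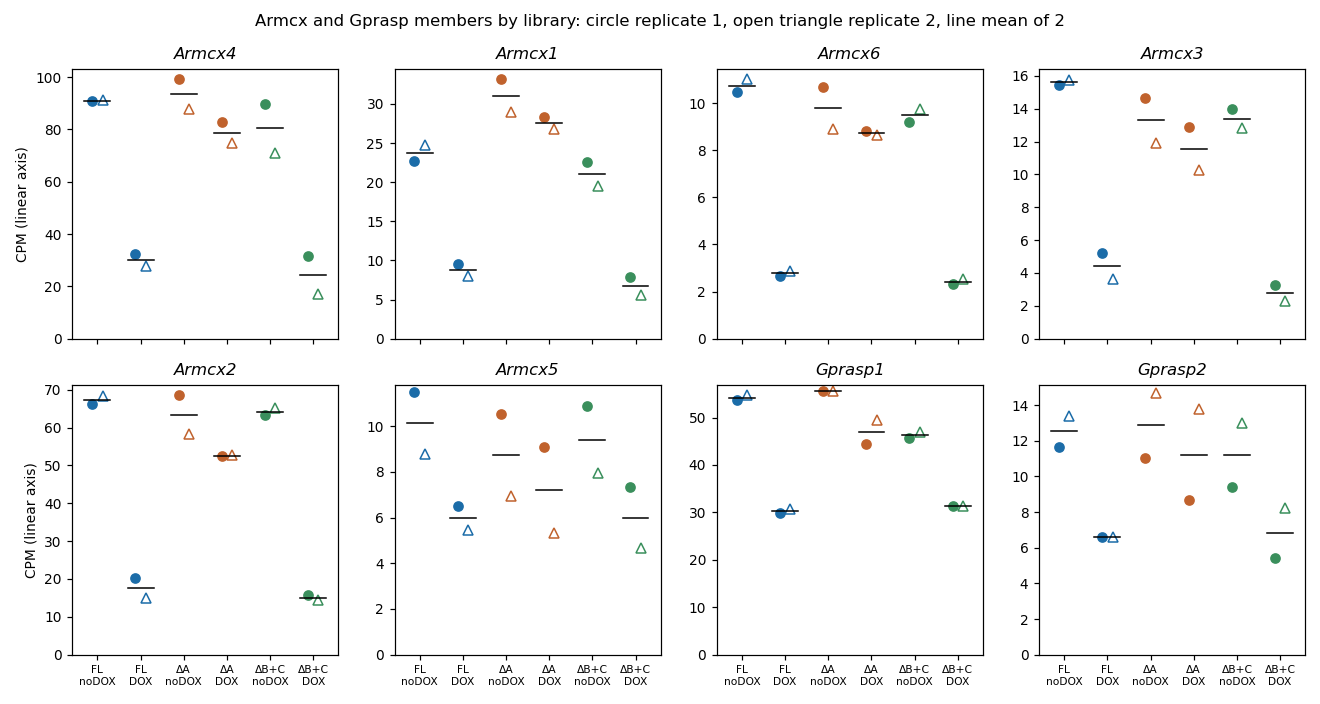
CPM of each member (linear axis from 0) in the 6 groups, with filled circles for replicate 1, open triangles for replicate 2 and a line at the mean of 2. In *Xist* FL and *Xist* ΔB+C both DOX libraries lie below both noDOX libraries for each of the 8 members, while in *Xist* ΔA the groups overlap for 3 of them.

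In the proximal group, induction of full-length *Xist* went with levels between 25.8% and 37.1% of those without DOX. *Armcx2*, which encodes a membrane-anchored armadillo-repeat protein, was at 66.2 and 68.4 CPM without DOX and at 20.2 and 15.1 CPM with it, which gave a log2 (fold change) of −1.93 with a standard error of 0.14 (adjusted p = 0.0017). *Armcx6* was at 10.4 and 11.0 CPM without DOX and at 2.68 and 2.86 CPM with it (−1.95, standard error 0.15, adjusted p = 0.0017). For both genes the lowest noDOX library was more than 3 times as high as the highest DOX library. *Armcx3*, the mitochondrial adaptor partner, was at 15.5 and 15.8 CPM and at 5.21 and 3.64 CPM (−1.82, standard error 0.23, adjusted p = 0.0096). *Armcx4*, the member with the longest coding sequence, was at 90.9 and 91.1 CPM and at 32.2 and 27.8 CPM (−1.60, standard error 0.25, adjusted p = 0.0226). *Armcx1* was at 22.7 and 24.7 CPM and at 9.58 and 8.02 CPM (−1.43, standard error 0.18, adjusted p = 0.0096). In bulk RNA, fewer cells that express a gene and less RNA per cell cannot be told apart, so these values do not say how many cells had lost the transcript.

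In the distal group the differences were smaller. *Gprasp1*, the receptor-sorting protein, was at 53.7 and 54.7 CPM without DOX in *Xist* FL and at 29.9 and 30.8 CPM with it, which is 56.0% of it, or −0.84 in log2 terms (standard error 0.08, adjusted p = 0.0037). *Gprasp2*, its closest relative, was at 11.7 and 13.4 CPM and at 6.61 CPM in both DOX libraries (−0.92, standard error 0.29), which did not pass the test (adjusted p = 0.193, and 0.0035 when the replicate number entered as a block). *Armcx5* was at 11.5 and 8.78 CPM and at 6.52 and 5.45 CPM (−0.76, standard error 0.34, adjusted p = 0.372, and 0.0068 with the block). In each of the 3 genes both DOX libraries lay below both noDOX libraries, which 25.7% of all genes tested also showed. The test called 6 of the 8 members lower in *Xist* FL, and 8 with the block, where 1.09% of all genes tested (8.13% with the block) were called lower. As this comparison was in view when the members were proposed, nothing is read from that difference. The count was 3 without the *Xist* FL noDOX replicate 1 library, 2 without noDOX replicate 2, 5 without DOX replicate 1 and 2 without DOX replicate 2.

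In *Xist* ΔB+C the same 6 members were called lower. *Armcx3* was at 14.0 and 12.8 CPM without DOX and at 3.24 and 2.28 CPM with it, which gave −2.27 on the log2 scale (standard error 0.24, adjusted p = 0.0032), the lowest value among the members. *Armcx2* was at 63.3 and 65.0 CPM and at 15.8 and 14.4 CPM (−2.09, standard error 0.15, adjusted p = 0.00058). *Armcx6* was at 9.21 and 9.77 CPM and at 2.31 and 2.53 CPM (−1.97, standard error 0.15, adjusted p = 0.00094). In these 3 genes the levels with DOX were between 20.7% and 25.5% of those without. *Armcx4* was at 89.8 and 70.9 CPM and at 31.7 and 17.2 CPM (−1.71, standard error 0.25, adjusted p = 0.0119), with the lower value in replicate 2 each time. *Armcx1* was at 22.6 and 19.5 CPM and at 7.83 and 5.53 CPM (−1.65, standard error 0.18, adjusted p = 0.0038).

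The distal members again stood nearer to their noDOX level in *Xist* ΔB+C. *Gprasp1* was at 45.6 and 46.9 CPM without DOX and at 31.4 CPM in both DOX libraries (−0.56, standard error 0.08, adjusted p = 0.0135). *Gprasp2* was at 9.43 and 13.0 CPM and at 5.45 and 8.25 CPM (−0.71, standard error 0.29, adjusted p = 0.220, and 0.0088 with the block). *Armcx5* was at 10.9 and 7.96 CPM and at 7.33 and 4.65 CPM (−0.65, standard error 0.34, adjusted p = 0.347, and 0.0088 with the block). For *Gprasp2* and *Armcx5* the spread between replicates was large against the DOX difference, although the groups did not overlap, as in 23.3% of all genes tested. The test called 6 of the 8 members lower, and 8 with the block, against 2.13% and 12% of all genes tested. Without the low-input library 5 members were called, since *Gprasp1* no longer passed (−0.56, adjusted p = 0.0838), and *Armcx4* stood at −1.34 and *Armcx1* at −1.43. Without the *Xist* ΔB+C noDOX replicate 1 library 4 members were called, as *Armcx4* and *Gprasp1* had an adjusted p of 0.0823 each, and without noDOX replicate 2 *Gprasp1* alone was lost (adjusted p = 0.0915).

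**Figure D2:**
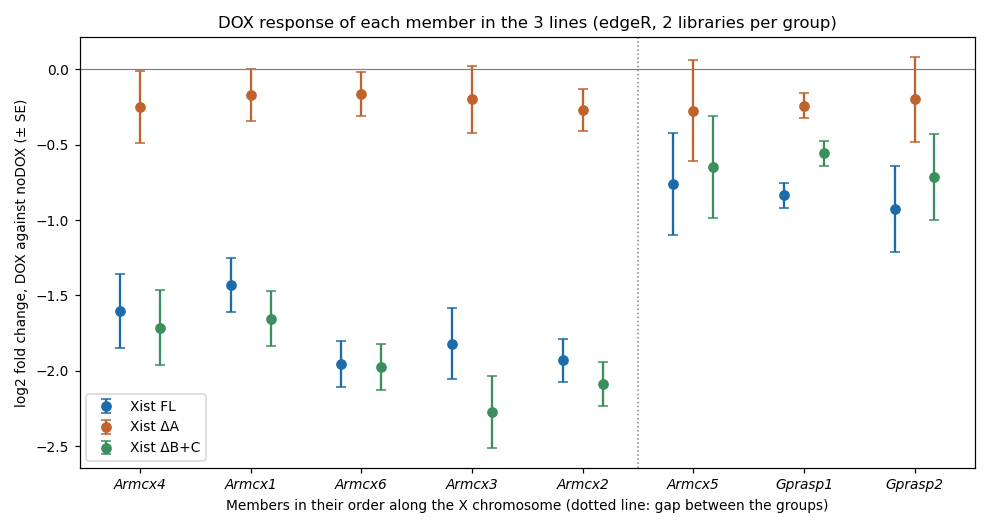
Log2 (fold change) of each member with DOX against noDOX (y axis, points, with the standard error as bars) in the 3 lines, in the members' order along the X (x axis), with a dotted line at the gap between the groups. The 5 proximal members lie between −1.43 and −2.27 in *Xist* FL and *Xist* ΔB+C and the 3 distal members between −0.56 and −0.92, while in *Xist* ΔA all 8 lie between −0.16 and −0.27.

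In *Xist* ΔA the members stayed close to their noDOX levels. *Armcx4* was at 99.2 and 88.0 CPM without DOX and at 82.8 and 74.7 CPM with it (log2 (fold change) −0.25, 95% interval −0.79 to 0.29). *Armcx2* was at 68.6 and 58.2 CPM and at 52.4 and 52.6 CPM (−0.27, 95% interval −0.58 to 0.04). *Gprasp1* was at 55.7 and 55.5 CPM and at 44.5 and 49.5 CPM (−0.24, 95% interval −0.43 to −0.05), the member with the smallest unadjusted p (0.0182, edgeR's quasi-likelihood test). The test called 0 of the 8 members, against 0.00758% of all genes tested (*Xist* itself), with an adjusted p of 1 for each member, and 1 member at an unadjusted p under 0.05. The counts were also 0 with DESeq2, with limma-voom and with the block (0.0227% of all genes tested), under which *Gprasp1* and *Armcx2* had an unadjusted p under 0.05. The log2 (fold change) was below 0 for all 8, with a median of −0.22, beside −0.14 for the 464 tested X-linked genes apart from *Xist* and 0.00014 for all genes tested. Both DOX libraries were below both noDOX libraries in 5 members, which 12.5% of all genes tested also showed, and *Armcx3*, *Armcx5* and *Gprasp2* overlapped. *Armcx3* was at 14.7 and 11.9 CPM without DOX and 12.9 and 10.2 CPM with it. *Armcx5* was at 10.5 and 6.94 CPM and at 9.10 and 5.34 CPM, and *Gprasp2* at 11.0 and 14.7 CPM and at 8.67 and 13.8 CPM, with the replicates further apart than the treatments.

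Against the whole X, the groups took different places. The median log2 (fold change) of the 8 members was −1.52 in *Xist* FL and −1.68 with *Xist* ΔB+C, beside −0.85 and −0.78 for the 464 tested X-linked genes and −0.0072 and −0.0030 for all genes tested. The 5 proximal members had a median of −1.82 in *Xist* FL and −1.97 with *Xist* ΔB+C. Ranked from the lowest value among these 464 genes in *Xist* FL, *Armcx6* was at place 16, *Armcx2* at 18, *Armcx3* at 23, *Armcx4* at 41 and *Armcx1* at 58. In *Xist* ΔB+C, *Armcx3* was at place 3, *Armcx2* at 5, *Armcx6* at 9, *Armcx4* at 23 and *Armcx1* at 29. The distal members lay near the middle of the X in both lines, at places 207 (*Gprasp2*), 238 (*Gprasp1*) and 272 (*Armcx5*) in *Xist* FL and 259, 322 and 286 in *Xist* ΔB+C. In *Xist* ΔA all 8 members lay between places 147 and 213. These ranks describe the values by which the members were chosen and are not a test.

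**Figure D3:**
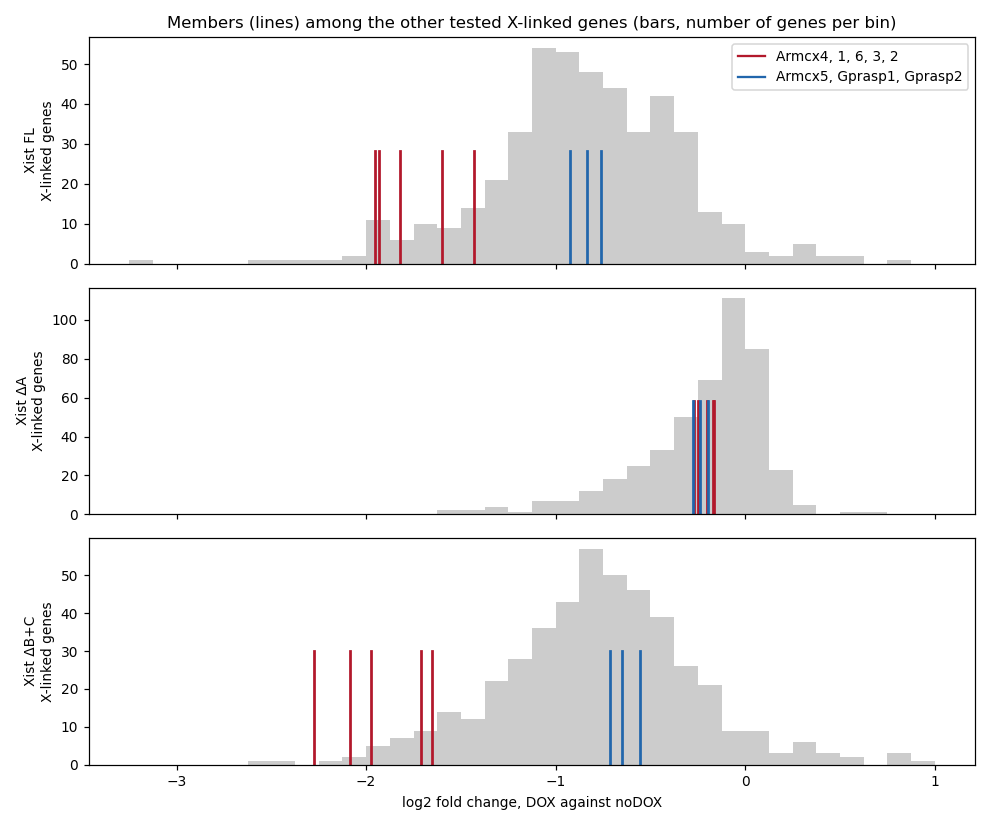
Number of tested X-linked genes (y axis, grey bars, members and *Xist* left out) by log2 (fold change) with DOX against noDOX (x axis) in each line, with red lines for the proximal and blue lines for the distal members. In *Xist* FL and *Xist* ΔB+C the red lines lie at the low end, from −1.43 down to −2.27, and the blue lines within the main body, while in *Xist* ΔA the lines of both groups lie between −0.16 and −0.27.

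With these unequal changes the make-up of the family's transcripts shifted. The summed level of the 8 members was 282.6 and 287.8 CPM in *Xist* FL noDOX and 113.0 and 100.2 CPM in *Xist* FL DOX. The proximal members made up 72.8% and 73.3% of that sum without DOX and 61.9% and 57.2% with it. In *Xist* ΔB+C the proximal share was 75.1% and 72.4% without DOX and 57.9% and 48.6% with it, the lowest value being that of the low-input library. In *Xist* ΔA the share was 74.6% and 71.8% without DOX and 74.8% and 71.6% with it. *Gprasp1* alone made up 19.0% of the family's CPM in both *Xist* FL noDOX libraries and 26.5% and 30.7% in the DOX libraries, although its own level was lower there.

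The size of the response was compared between lines, with the DOX values of the compared lines again among those in view when the members were proposed. *Xist* levels with DOX differed between the lines, as did the share of *Xist*-coated cells that the paper counted by RNA FISH. The responses were not adjusted for either. Between *Xist* ΔB+C and *Xist* FL no member passed the test (0 of 8, against 0% of all genes tested). Of the members *Gprasp1* alone had an unadjusted p under 0.05 in edgeR's quasi-likelihood test (0.0433). The counts were 0 as well with DESeq2, limma-voom and the block. The difference of *Gprasp1* was 0.28 (95% interval 0.010 to 0.55, adjusted p = 1), that is, the response was smaller in *Xist* ΔB+C. *Armcx3* had the largest difference of the other sign, −0.45 (95% interval −1.19 to 0.28). The 5 proximal members had differences between −0.02 and −0.45 and the 3 distal members between 0.11 and 0.28, but the interval of each member apart from *Gprasp1* included 0, and without the low-input library the sign turned for *Armcx4* (0.26), *Armcx1* (0.0016) and *Gprasp2* (−0.117).

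The difference between *Xist* ΔB+C and *Xist* ΔA passed the test for *Armcx2* and *Armcx6*, 2 of 8 members, where 0.159% of all genes tested were called in that direction. DESeq2 called 5 members and limma-voom 3. *Armcx2* differed by −1.82 (standard error 0.20, adjusted p = 0.0240) and *Armcx6* by −1.81 (standard error 0.21, adjusted p = 0.0240). With the block all 5 proximal members passed, at adjusted p-values from 0.00040 to 0.00995, where 5.09% of all genes tested did, and none of the distal members. *Armcx3* had the largest difference, −2.07 (standard error 0.32, adjusted p = 0.0546 without the block). These calls rested on the full set of libraries. Leaving out a library of *Xist* ΔB+C, *Xist* ΔA or *Xist* FL noDOX left 0 members, or 1 (*Armcx4*) without *Xist* ΔB+C DOX replicate 1, with adjusted p-values of *Armcx2* and *Armcx6* between 0.0501 and 0.184, and without a *Xist* FL DOX library both were still called. Between *Xist* ΔA and *Xist* FL 0 of 8 members passed (0% of all genes tested), with differences from 0.49 for *Armcx5* to 1.79 for *Armcx6* and 6 members at an unadjusted p under 0.05. The counts in that comparison were 6 with the block, where 1.99% of all genes tested were called higher, 6 with DESeq2 and 0 with limma-voom.

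The lines were also compared without DOX, on values that were in view when the members were chosen. Between *Xist* ΔA and *Xist* FL, 0 of 8 members passed the test, where 9.84% of all genes tested did, and 0 members had an unadjusted p under 0.05. DESeq2 and limma-voom also called 0. *Armcx1* came closest, at 33.1 and 29.0 CPM in *Xist* ΔA against 22.7 and 24.7 CPM in *Xist* FL, a log2 difference of 0.39 (standard error 0.17, adjusted p = 0.194). With the block it passed (0.38, standard error 0.12, adjusted p = 0.0315), where 33.4% of all genes tested did. Libraries of the lines did not overlap for *Armcx1* and *Gprasp1* (higher in *Xist* ΔA) and *Armcx3* (lower), 3 of 8 members beside 57.2% of all genes tested. The other members differed by −0.23 (*Armcx3*) to 0.04 (*Armcx4*), with the widest interval for *Armcx5* (−0.21, 95% interval −0.96 to 0.54).

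Between *Xist* ΔB+C and *Xist* FL without DOX, which shares the *Xist* FL libraries with the comparison above, 0 of 8 members passed (0.0227% of all genes tested), and DESeq2, limma-voom and the block (0.993% of all genes tested) also called 0. All 8 were on the lower side, from −0.07 for *Armcx2* to −0.23 for *Gprasp1*. So were 282 of the 464 tested X-linked genes apart from *Xist* and 6653 of all 13191 genes tested. *Gprasp1* was at 45.6 and 46.9 CPM in *Xist* ΔB+C against 53.7 and 54.7 CPM in *Xist* FL (−0.23, 95% interval −0.42 to −0.04, adjusted p = 0.747, unadjusted p = 0.0231 with edgeR), the single member at an unadjusted p under 0.05. The libraries of the 2 lines did not overlap in 6 members, which 35.5% of all genes tested also showed, and overlapped in *Armcx5* and *Gprasp2*.

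Replicates 1 and 2 differed for some members. Replicate 2 was lower than replicate 1 for *Armcx5* in all 6 groups, at −0.52 (standard error 0.08, adjusted p = 0.00062) in a fit with the group and the replicate number, and no other member was on the same side in all 6, as 41.4% of all genes tested were. *Gprasp2* went the other way, at 0.39 (standard error 0.09, adjusted p = 0.0046), higher in 5 of 6 groups and at −0.00089 in *Xist* FL DOX. The *Gprasp2* libraries were, for example, at 9.43 CPM in replicate 1 and 13.0 CPM in replicate 2 of *Xist* ΔB+C noDOX, while those of *Armcx5* were at 10.9 and 7.96 CPM. *Armcx3* (−0.27, standard error 0.08, adjusted p = 0.0232) and *Armcx4* (−0.28, standard error 0.10, adjusted p = 0.0452) were lower in replicate 2 in 5 of 6 groups. *Gprasp1* differed by 0.04 (95% interval −0.05 to 0.13) and *Armcx6* by 0.0053 (95% interval −0.17 to 0.18). The 4 called members of 8 stand beside 46.3% of all genes tested, so the share among the members was near that among all genes. The median of the members was −0.14, beside −0.17 for the X-linked genes and −0.0015 for all genes tested. *Armcx3* and *Armcx4* each lost the call in 8 of the 12 fits that left out a library, where the count of called members fell to 2 or 3, and *Armcx1* gained it without either *Xist* FL noDOX library.

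**Figure D4:**
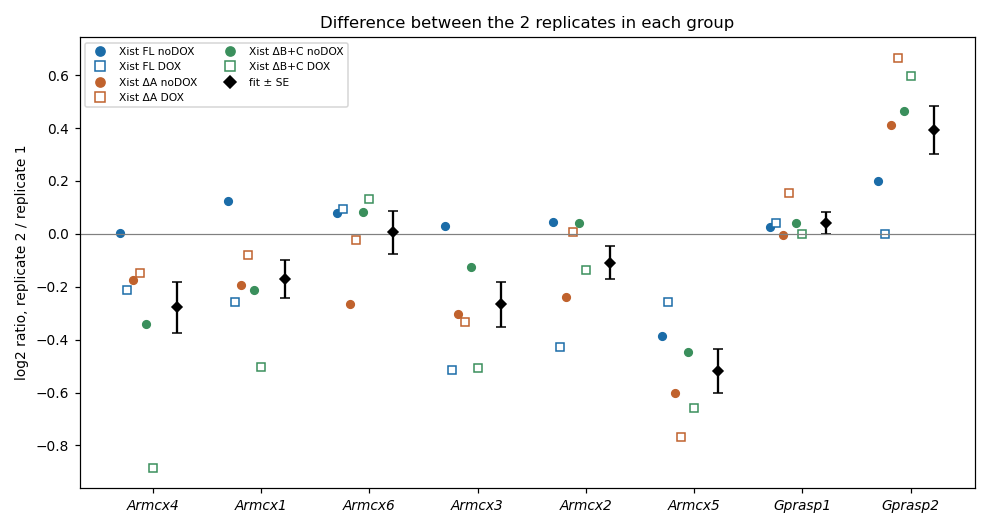
Log2 ratio of replicate 2 to replicate 1 for each member (y axis), with circles for the noDOX and open squares for the DOX group of each line and a black diamond with the standard error for the fit over 6 groups. All 6 points of *Armcx5* lie below 0, 5 of the 6 points of *Gprasp2* lie above it, and those of *Gprasp1* lie between −0.0040 and 0.154.

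Correlations of log2 CPM over the 12 libraries, which share lines, treatments and replicate numbers, describe how alike the members were. Pearson's r with the mean profile of the scaled members was highest for *Armcx2* (0.994) and lowest for *Armcx5* (0.722). Each member is itself part of that mean, which raises its r, so these values are not like those of other genes. Between members it ranged from 0.254 for *Armcx5* with *Gprasp2* to 0.990 for *Armcx6* with *Armcx2*. *Armcx5* and *Gprasp1*, which share a start and 456 bp of exon, had an r of 0.604. Among all other genes tested the 5 most like the mean profile were *Tro* (0.994), *Bhlhb9* (0.990), *Rtl8a* and *Prps1* (0.987 each) and *Dlg3* (0.985), all of them X-linked.

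*Bhlhb9* and *Armc10* are relatives outside the 8 members. *Bhlhb9*, which lies among the distal members and shares exon with *Gprasp2*, was at 43.5 and 42.6 CPM in *Xist* FL noDOX and at 21.1 and 17.5 CPM in *Xist* FL DOX (−1.16, standard error 0.13, adjusted p = 0.0063). Its value was −1.03 in *Xist* ΔB+C (standard error 0.13, adjusted p = 0.0064) but −0.11 in *Xist* ΔA (standard error 0.13, adjusted p = 1). *Armc10*, on an autosome, was at 64.5 and 72.5 CPM in *Xist* FL noDOX and at 64.1 and 63.8 CPM in *Xist* FL DOX (−0.10, standard error 0.09, adjusted p = 0.686). It changed by −0.22 in *Xist* ΔB+C (adjusted p = 0.231, and 0.0420 with the block) and by 0.0042 in *Xist* ΔA.

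Few other tested genes start within the span of the family. No tested gene other than the 5 members started in the proximal group, and 3 started between it and *Gprasp2*. *Tceal6*, in the gap, had a mean of 1.00 CPM and log2 (fold change) values of −2.54 for *Xist* FL (adjusted p = 0.0142) and −2.46 for the ΔB+C line (adjusted p = 0.0135), beside −1.56 for the ΔA line, which did not pass the test (adjusted p = 1). *Nxf7*, also in the gap and at a mean of 0.859 CPM, had values of 0.23 (adjusted p = 0.909) and 0.53 (adjusted p = 0.691), and *Bhlhb9* is described above.

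The genes that work with these proteins were taken from lists of partners. Of 18 genes of mitochondrial transport and dynamics, all tested, 1 fell in *Xist* FL (*Snph*, a protein that anchors mitochondria, −1.70, standard error 0.33, adjusted p = 0.0489, at a mean of 2.65 CPM) and 0 in *Xist* ΔB+C, beside 1.09% and 2.13% of all genes. Their median log2 (fold change) was −0.03 in *Xist* FL and −0.10 with *Xist* ΔB+C. These medians and all log2 values of the partner genes are from the fit without the block, also where the adjusted p is with it. With the block 4 were lower and 2 higher in *Xist* FL, among them the fission factor *Mff* (−0.33, adjusted p = 0.0267) and the fusion protein *Mfn2* (0.32, adjusted p = 0.0158), where 8.13% and 5.72% of all genes tested were. In the ΔB+C line 3 were lower and 2 higher with the block (12% and 9.89% of all genes tested), *Mff* (−0.41, adjusted p = 0.0074) and *Mfn2* (0.35, adjusted p = 0.0071) among them. Of 15 genes of receptor sorting, 14 were tested and 0 passed in any line, with medians between −0.13 for *Xist* FL and 0.02 for the ΔA line, and with the block 2 were lower and 1 higher in each of *Xist* FL and *Xist* ΔB+C, where 8.13% and 5.72% of all genes tested were in the former and 12% and 9.89% in the latter. Without DOX, *Arrb2* (−0.69, standard error 0.11, adjusted p = 0.0082), a β-arrestin, and *Becn1* (−0.43, standard error 0.08, adjusted p = 0.0136) were lower in *Xist* ΔA than in *Xist* FL, 2 of 14 where 5.54% of all genes tested were lower, and 5 of 14 with the block, where 17.2% were. *Sox10*, a reported partner of *Armcx3*, and *Sox9* did not pass in any DOX comparison, with *Sox10* at −0.65 in *Xist* FL (adjusted p = 0.369) and at −0.92 in the ΔB+C line (adjusted p = 0.137, and 0.0455 with the block). Both genes lay near the filter of 1 CPM, with means of 1.296 CPM for *Sox10* and 1.255 CPM for *Sox9*.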

How the data were processed

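RNA-seq of 12 libraries was used. The authors mapped paired reads to mm10 with TopHat2 2.1.0 and the refFlat annotation, and deposited raw counts of read pairs per gene from featureCounts 1.5.1, without normalization or pooling. Groups came from the labels. The members, lists and tests were chosen with earlier results of these data known. Counts were scaled by TMM factors from expressed autosomal genes (0.978 to 1.02) and fitted over 6 group means with edgeR 4.0.16 (quasi-likelihood test, robust, Benjamini–Hochberg over 13191 genes, threshold 0.05, R 4.3.3). Levels are CPM on that scale. Standard errors are the absolute log2 (fold change) divided by the square root of the test's F statistic. The 95% intervals were built from them with a t quantile. Replicate numbers are shared by the groups in the labels, and replicate differences correlated in all 15 pairs of groups (r from 0.39 to 0.766), so a fit with the replicate number as a block is given where it changes a call. The named genes are the members, *Bhlhb9*, *Armc10*, tested genes starting within the family's span, genes of the partner lists past the threshold or else those with the smallest p, and the 5 most correlated genes. Positions, exons and stretches shared between genes came from GENCODE vM21, and promoter windows from RefSeq. Alternatives were DESeq2 1.42.0, limma-voom (limma 3.58.1), other scalings and filters, each line alone and leaving out each library. Tests were checked on simulated data.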

Additional observations from a re-analysis of the deposited data

Results flagged for a closer look

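The response of *Armcx6* differed between lines by −1.81 (log2, *Xist* ΔB+C minus *Xist* ΔA, edgeR adjusted p = 0.0240). The response of *Armcx2* differed by −1.82 in the same comparison (adjusted p = 0.0240). Both results stand here because the test of the difference between the lines itself passed the threshold, and the DOX values of these lines were in view when the genes were chosen. As described above, both calls rested on the full set of libraries. Leaving out each library in turn, the difference ranged from −1.95 to −1.68 for *Armcx6* and from −1.94 to −1.7 for *Armcx2*. With 2 libraries per group no library could be judged an outlier within its group.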

How the results depend on the processing

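Over 8 alternatives other than leaving out a library, 475 of 520 values for members and comparisons kept their direction and side of the threshold. With each line fitted alone, and so with fewer samples in the fit, 0 members were called in *Xist* FL and 0 with *Xist* ΔB+C (the cause was not tested). The replicate numbers paired the libraries, and with the replicate block 6 members were called in the response of *Xist* ΔA minus *Xist* FL (0 without it), 5 in *Xist* ΔB+C minus *Xist* ΔA (2 without it) and 1 between *Xist* ΔA and *Xist* FL without DOX (0 without it), besides *Armcx5* and *Gprasp2* in the DOX comparisons of *Xist* FL and *Xist* ΔB+C. The block changed no other call of a member. DESeq2 called 6 members in *Xist* ΔA minus *Xist* FL and 5 in *Xist* ΔB+C minus *Xist* ΔA, and dropping the filter on low counts called 2 and 4 (the cause was not tested). *Armcx6* changed sign in *Xist* ΔB+C minus *Xist* FL with library totals (0.0121) and in replicate 2 against 1 with library totals (−0.00519) and limma-voom (−0.00707). With the longest transcript in place of all exons, the *Xist* FL noDOX levels in CPM per kb were 17.8 for *Armcx2*, 9.82 for *Armcx1*, 9.28 for *Gprasp1*, 5.07 for *Armcx6*, 4.48 for *Armcx3*, 3.64 for *Armcx5* and 3.29 for *Gprasp2*. Leaving out each library in turn, the members called numbered 2 to 6 for DOX in *Xist* FL, 4 to 6 for DOX in *Xist* ΔB+C, 0 to 2 in *Xist* ΔB+C minus *Xist* ΔA and 2 to 5 for replicate 2 against 1. Values near 0 changed sign. For DOX in *Xist* ΔA, *Armcx5* ranged from −0.712 to 0.0609 and *Gprasp2* from −0.562 to 0.098. In *Xist* ΔB+C minus *Xist* FL the ranges were −0.622 to 0.261 for *Armcx4*, −0.5 to 0.00155 for *Armcx1*, −0.0833 to 0.0475 for *Armcx6*, −0.354 to 0.0732 for *Armcx2*, −0.258 to 0.399 for *Armcx5* and −0.117 to 0.482 for *Gprasp2*, and in *Xist* ΔB+C minus *Xist* ΔA −0.744 to 0.0628 for *Armcx5*. For *Xist* ΔA against *Xist* FL without DOX they were −0.0478 to 0.125 for *Armcx4*, −0.208 to 0.0295 for *Armcx2*, −0.545 to 0.0564 for *Armcx5* and −0.183 to 0.229 for *Gprasp2*, and for *Xist* ΔB+C against *Xist* FL without DOX −0.349 to 0.0987 for *Armcx5* and −0.412 to 0.0528 for *Gprasp2*. *Armcx6* ranged from −0.0186 to 0.068 in replicate 2 against 1. In *Xist* FL DOX, counts were lowest for *Armcx6*, at 92 and 109, while the standard error of the DOX comparison in *Xist* FL was highest for *Armcx5* (0.34). The lowest count of any member in any library was 72, for *Armcx3* in the low-input library of *Xist* ΔB+C DOX.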
